A study of Mus musculus with 19 samples.

Results

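The subject is the genotype by day difference in growth-stimulated mouse plantaris tendon: how far the effect of losing scleraxis at day 14 departed from its effect at day 7, gene by gene. It rests on 16 of the 19 RNA libraries of the series, all those from tendons given a growth stimulus and all from mice given tamoxifen. These are 4 libraries each of Scx+ day 7, Scx- day 7, Scx+ day 14 and Scx- day 14, and the study's title describes the Scx- state as a targeted deletion of scleraxis. The 3 remaining libraries, from Scx+ mice with neither tamoxifen nor stimulus, do not enter the difference and are given only as levels. Alleles, the driver of the recombinase, the kind of stimulus, strain, sex and age are not stated in the labels, and replicates are not said to be separate animals, so p-values measure the spread between these samples, which may be technical.

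Scleraxis is a basic helix-loop-helix transcription factor of tendon cells and drives tendon matrix genes such as Tnmd and Col1a1. A tendon under a growth stimulus also takes in blood, immune cells and new vessels, and RNA of the whole tissue carries all of them. Type I interferons act through a pair of receptor chains and transcription factors downstream of them to induce a broad set of antiviral genes, and Irf7, itself induced, is the factor that amplifies interferon production. Red cell precursors and young red cells carry messages for haem synthesis, globins and a specialised membrane.

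Every level below is a rescaled deposited signal, in units with no fixed read equivalent. The library totals of the 16 spanned 36.6 to 48.5 after division by 1e6. Read depth cannot be read from them, so values carry no counting interval. A difference is the genotype effect (Scx- less Scx+) at day 14 less that at day 7 on the scale of log2(signal + 2). Its standard error is moderated by limma: it joins the gene's own spread, on 12 residual degrees of freedom, with that of all genes. A negative difference therefore means that Scx- stood higher relative to Scx+ at day 7 than at day 14. In bulk tissue, fewer cells of a type and less RNA per cell cannot be told apart.

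Of 16109 genes tested with limma, 0 (0%) passed an adjusted p of 0.05, and the lowest adjusted p was 0.101. At an unadjusted p under 0.05 there were 843 genes, 5.23% of those tested: 518 (3.22%) with a negative difference and 325 (2.02%) with a positive one. At an unadjusted p under 0.001 there were 56 genes, of which 47 were negative and 9 positive. Of these 56, 23 belong to the lists of interferon response genes, interferon-induced GTPases or MHC class I genes, and 3 to the red cell list. Those lists hold 41, 16, 13 and 37 of the 16109 genes tested. They were chosen with earlier results of these data known, so these counts are a description. Over all genes, 7609 differences were negative and 8500 positive, the median difference was 0.02 and the median standard error 0.35. Scaling by library totals moved the median of all genes to -0.14 and the deposited scale to -0.14. Positive differences made up 38.6% of the 843, against 17.9% of the genes under the same p with library totals and 13.9% on the deposited scale.

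Scx, the targeted gene (GRCm38 chromosome 15, 76457411 to 76459468), separated the genotypes on both days. Its signal was 7900, 5570, 3240 and 2720 in Scx+ day 7 and 16.9, 8.77, 8.74 and 5.60 in Scx- day 7. The day 14 values were 5040, 3670, 4970 and 2070 in Scx+ and 5.83, 2.55, 4.82 and 1.63 in Scx-. Every Scx- library thus lay far below every Scx+ library of its day. The log2 difference was -0.81 ± 0.56 (SE; 95% interval -2.0 to 0.39; limma adjusted p = 0.998), and with a pseudocount of 16 it was -0.14.

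For the tendon genes Tnmd and Col1a1 the difference was smaller than its standard error. Tnmd, a membrane glycoprotein of mature tendon cells, read 27200, 18900, 9890 and 10000 in Scx+ day 7 and 2160, 1010, 2390 and 1420 in Scx- day 7. It read 62200, 38300, 35800 and 15600 in Scx+ day 14 and 1150, 1260, 6220 and 6540 in Scx- day 14. The genotypes did not overlap on either day. Its difference was -0.43 ± 0.86 (95% interval -2.26 to 1.40; limma adjusted p = 0.998), an interval wide enough to hold a 2-fold change of the effect either way. Without Scx- day 14 replicates 1 and 2, the libraries with the most skeletal muscle signal, it was 0.77, and with the red cell list as a covariate -1.52, the extremes of the 31 alternative settings. Col1a1, the main collagen chain of tendon, gave -0.40 ± 0.58 (95% interval -1.63 to 0.83; limma adjusted p = 0.998), with extremes of 0.35 without that pair and -1.67 with the red cell covariate. Over the 16 tendon lineage genes, 8 differences were negative and 8 positive, with a median of 0.07, beside median genotype effects of -1.37 at day 7 and -1.41 at day 14. None of these 16 had an unadjusted p under 0.05. The sign of this median was not stable: it was positive in 21 of 31 alternatives and ranged from -0.85 with the red cell covariate to 0.61 without the muscle-rich pair.

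**Figure D1:**
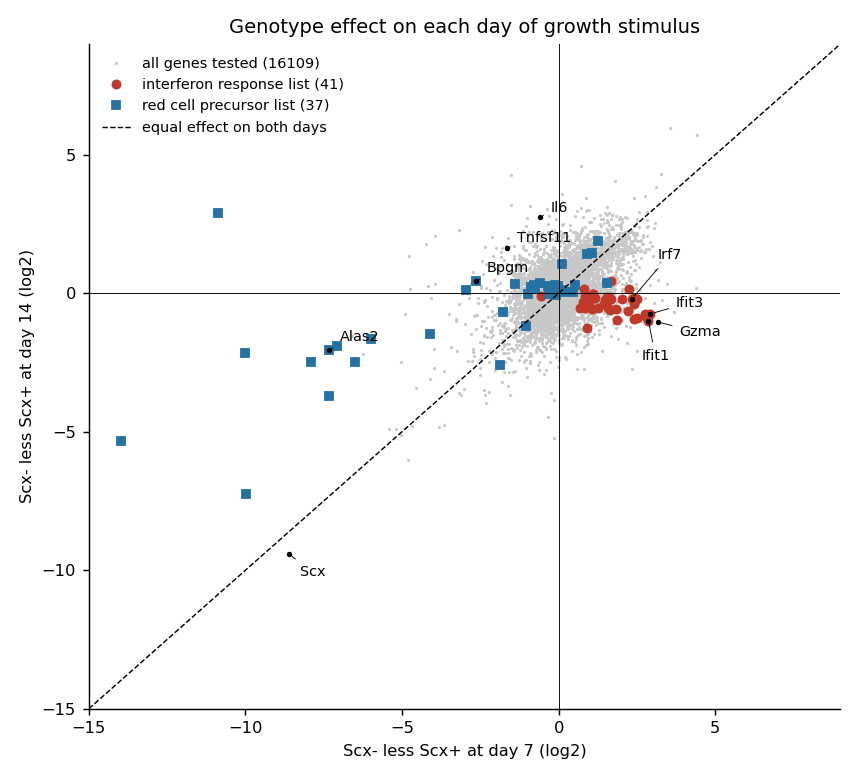
Genotype effect (Scx- less Scx+, log2 of signal + 2) at day 7 on the horizontal axis and at day 14 on the vertical axis for the 16109 genes tested, with the interferon response list in red and the red cell precursor list in blue. The dashed line marks equal effects: Scx lies near it at -8.61 and -9.42, 40 of the 41 interferon genes lie below it, and Alas2 and Bpgm lie above it on the left.

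Interferon-induced genes stood high in Scx- at day 7 and not at day 14. Of 41 tested members of the interferon response list, 40 had a negative difference, and 39 had an unadjusted p under 0.05 in that direction, against the 3.22% of all genes. None passed the adjusted threshold. The median difference was -1.81. The median genotype effect was 1.56 at day 7 and -0.32 at day 14, and 37 of the 41 had a positive effect at day 7 and a negative one at day 14. Of all 16109 genes, 2546 had that pattern and 2692 the reverse. From day 7 to day 14 the median change was -0.47 within Scx+ and -2.43 within Scx-. The list was known to stand out in these data when it was chosen, so its count is a description.

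Irf7, the amplifying factor (chromosome 7, 141263183 to 141266499), had the second lowest p of all genes. Its signal was 1560, 1480, 2220 and 2680 in Scx+ day 7 and 6470, 13600, 11000 and 9360 in Scx- day 7. It was 871, 982, 677 and 1230 in Scx+ day 14 and 1090, 1080, 593 and 586 in Scx- day 14. All 4 Scx- day 7 libraries stood above the other 12, and the day 14 genotypes overlapped. Its log2 effect was 2.34 ± 0.28 at day 7, a 5.06-fold higher level in Scx-, and -0.20 ± 0.28 at day 14. The difference was -2.54 ± 0.40 (limma unadjusted p = 1.26e-05, adjusted p = 0.101). Over the 31 alternative settings the adjusted p of Irf7 ranged from 0.0109 to 0.657, and it was at most 0.05 in 5 of them. In the control libraries Irf7 was 230, 304 and 269.

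The 4 tested sensors of foreign RNA and DNA had a median difference of -1.79, and all 4 had an unadjusted p under 0.05. Zbp1, a sensor of Z-form nucleic acid, read 1190, 2720, 2250 and 1840 in Scx- day 7 and 140 to 678 in all other stimulated libraries. Its difference was -2.08 ± 0.43 (limma adjusted p = 0.197).

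The 18 antiviral effectors had the lowest median of the list's roles, at -2.77, with 17 of 18 under an unadjusted p of 0.05. Ifit3, which belongs to the proteins that bind foreign RNA (chromosome 19, 34583119 to 34588982), read 533, 1200, 795 and 1980 in Scx+ day 7 and 4990, 17200, 8730 and 4630 in Scx- day 7. The day 14 values were 993, 1540, 1220 and 586 in Scx+ and 576, 519, 775 and 602 in Scx-. The Scx- day 7 libraries again lay above all others, by 7.65-fold over Scx+ day 7, and the difference was -3.68 ± 0.62 (limma adjusted p = 0.15). Its close copy Ifit3b, from which reads may not be separable, gave -3.49. Ifit1 gave -3.85 ± 0.73 (adjusted p = 0.197), with 2980, 9140, 5210 and 2230 in Scx- day 7 against 322 to 1300 in Scx+ day 7 and 177 to 1170 at day 14. Ifit2 gave -2.83, Ifi44 -3.39 and Bst2, which tethers budding virus to the cell surface, -1.32.

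The exception among the effectors was Rsad2, whose product blocks viral RNA synthesis. It read 686, 2540, 2060 and 1240 in Scx+ day 7 and 1820, 11400, 2910 and 934 in Scx- day 7, so the genotypes overlapped at day 7. Its difference was -2.18 ± 1.06 (limma unadjusted p = 0.0595). In the ISG15 conjugation system, 4 of 5 genes had an unadjusted p under 0.05. The exception there, Ube2l6, the conjugating enzyme, gave 0.44 ± 0.39. Its highest value was 6260 in Scx+ day 7 replicate 2. Rsad2 and Ube2l6 were picked out after their values were seen. Among the 10 other induced proteins all had an unadjusted p under 0.05, with Rtp4 at -2.10 and Lgals3bp, a secreted glycoprotein, at -1.15.

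The interferon receptor genes had small differences, and most ligand genes could not be tested. Of 9 listed, Ifnb1, Ifna2, Ifna4, Ifng and Ifnlr1 were too low to test, and Ifna2 and Ifna4 were listed at 0 in all 16 libraries. The receptor chain Ifnar1 read 4820, 4670, 4920 and 5100 in Scx+ day 7 and 4410, 4590, 4030 and 5530 in Scx- day 7. It read 5310, 3910, 4200 and 3640 in Scx+ day 14 and 2670, 2880, 4540 and 4340 in Scx- day 14. The genotypes overlapped on both days, and the difference was -0.19 ± 0.25 (95% interval -0.72 to 0.34; limma adjusted p = 0.998). Ifnar2 gave -0.29 and Ifngr1, a chain of the receptor for type II interferon, -0.21.

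Interferon-induced genes commonly carry the interferon-stimulated response element, a site for interferon regulatory factors. Its core was searched as GAAANNGAAA on both strands of the RefSeq promoters of GRCm38.p6, each reaching from 250 bases before to 50 bases after a gene's start. The core was present for 3.99% of the 27025 genes in the promoter table and for 3.84% of the 12429 of these genes that were tested. It was present for 15 of the 30 interferon response genes with a promoter in the table, for 9 of the 10 interferon-induced GTPases and for 0 of the 22 red cell genes. Only 30 of the 41, 10 of the 16 and 22 of the 37 had a promoter there, too few for these shares to stand for the lists. Irf7 has no match within its window. A match is a run of letters and was not tested as a site.
Stretches of 3 promoters of the interferon response list show the core, which stands in capitals together with any overlapping match (Ifit1 chr19:34640760-34640838, plus strand; Isg15 chr4:156200850-156200921, minus strand; Stat2 chr10:128270251-128270310, plus strand; each written 5′ to 3′ on the gene's strand, where TTTCNNTTTC is the core of the other strand):
Ifit1: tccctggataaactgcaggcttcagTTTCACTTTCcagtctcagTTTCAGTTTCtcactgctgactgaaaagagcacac
Isg15: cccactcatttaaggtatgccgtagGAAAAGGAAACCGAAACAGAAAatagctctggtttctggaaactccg
Stat2: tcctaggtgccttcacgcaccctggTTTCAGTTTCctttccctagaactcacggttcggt
Ifit1 holds 2 separate matches and Isg15 a run of 3 overlapping ones, while Stat2 holds 1. Isg15 and Stat2 were chosen for their matches.

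The interferon-induced GTPases, which act on vacuoles that hold microbes, followed the same course. Of 16 tested, 15 had a negative difference. For 10 the unadjusted p was under 0.05 in that direction, against the 3.22% of all genes. The median was -1.39, with median effects of 1.52 at day 7 and 0.09 at day 14. Gbp3 read 1810, 4690, 3860 and 2290 in Scx- day 7, above the 702, 665, 982 and 1430 of Scx+ day 7 and the 395 to 993 of day 14. Its difference was -2.05 ± 0.45 (limma adjusted p = 0.220). Ifi47 gave -1.99 and Irgm1 -1.55.

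In the list of MHC class I and peptide loading, which displays peptides to cytotoxic T cells, 12 of 13 differences were negative. The median was -0.66. For 7 the unadjusted p was under 0.05 in that direction, against the 3.22% of all genes. H2-T23, a nonclassical class I gene, gave -1.07 ± 0.26 (limma adjusted p = 0.266), with 3020, 4570, 4320 and 4830 in Scx- day 7 against 1920 to 2410 in Scx+ day 7. Tap1, a subunit of the peptide transporter, gave -1.09, and Psmb10, a subunit of the immunoproteasome, -0.76. The 8 genes of MHC class II presentation had a median of 0.08.

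**Figure D2:**
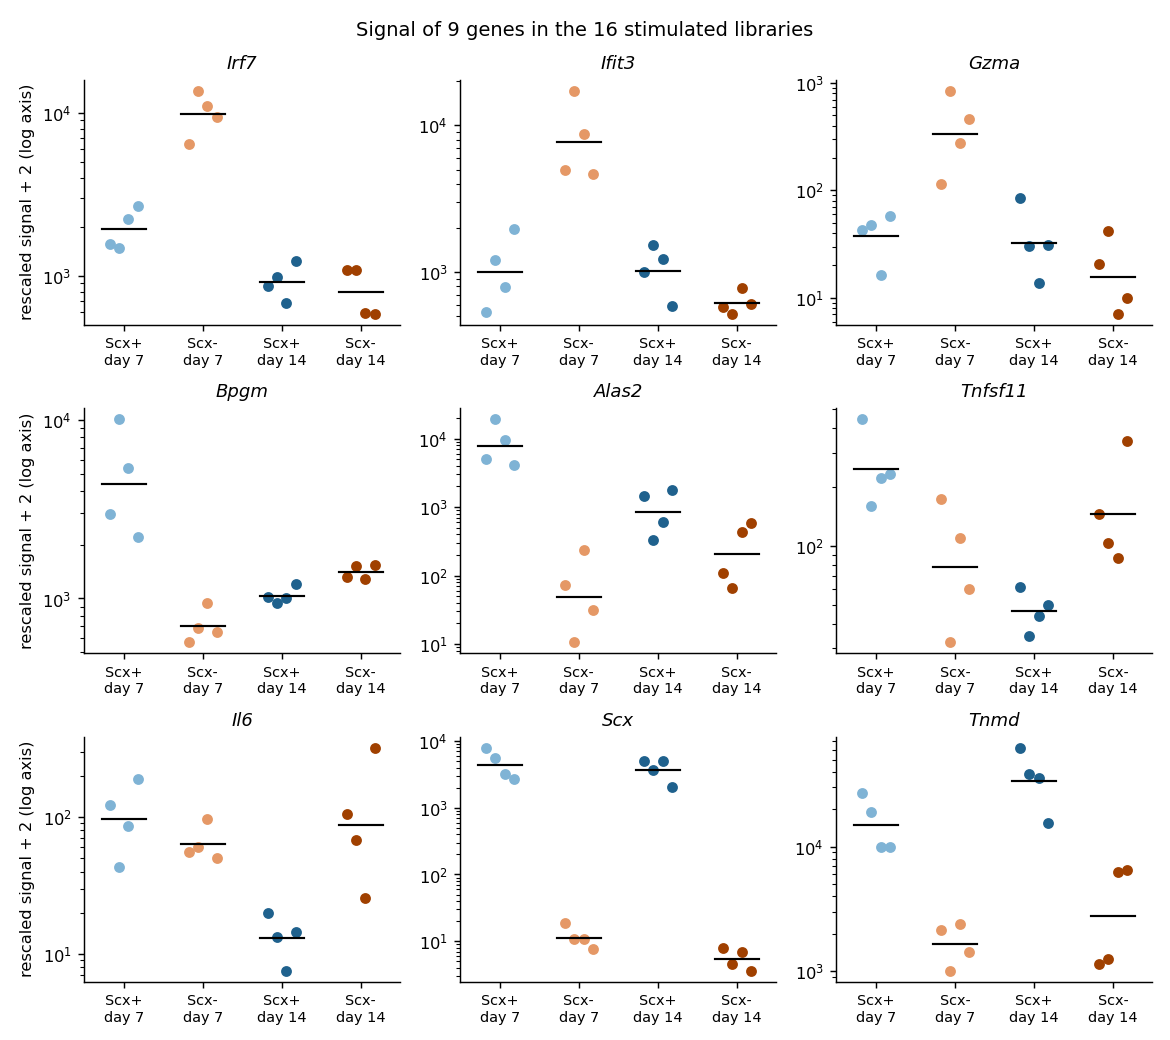
Rescaled signal + 2 (log axis) of 9 genes in the 16 stimulated libraries; each point is 1 library and each bar the geometric mean of 4. Irf7, Ifit3 and Gzma are highest in Scx- day 7, Bpgm and Alas2 in Scx+ day 7, and the genotypes of Tnfsf11 and Il6 separate at day 14 with Scx- above.

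Macrophage and lymphocyte genes, as lists, also stood highest in Scx- day 7, while neutrophil genes did not. The 9 neutrophil genes tested had a median difference of 1.42, with median effects of -0.63 at day 7 and 0.77 at day 14. Of these, 0 had an unadjusted p under 0.05. Without the muscle-rich pair of Scx- day 14 libraries the neutrophil median was -0.005. All 18 macrophage and monocyte markers had a negative difference, and the median was -0.74. For 4 the unadjusted p was under 0.05 in that direction, against the 3.22% of all genes. The summed macrophage list made up 0.309% to 0.469% of the signal in Scx+ day 7 and 0.409% to 0.945% in Scx- day 7. At day 14 it made up 0.208% to 0.347% in Scx+ and 0.119% to 0.327% in Scx-. No marker of the list was at 0 throughout. Fcgr1, the high-affinity IgG receptor and itself inducible by interferon, gave -1.42 ± 0.41 (limma adjusted p = 0.431). Ly6c2, a marker of inflammatory monocytes, read 629, 609, 500 and 1090 in Scx- day 7, above all 12 other libraries, which read 13.5 to 187. With the macrophage list as a covariate the median of the interferon list was -1.79 and 39 of its members had an unadjusted p under 0.05. That covariate itself differed by group, with means of 12.17 and 12.77 in Scx+ and Scx- at day 7, and 11.56 and 11.38 at day 14. It also holds Fcgr1, so this fit cannot separate cell number from induction. Without Scx- day 7 replicate 4, the median of the macrophage list was -0.48.

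Lymphocyte and killer cell genes were low in signal, and their list mean was highest in Scx- day 7. Not all members shared this, since 4 of the 16 had a negative genotype effect at day 7. Of 16 tested T, B and NK cell markers, 12 had a negative difference and 4 a positive one. Under an unadjusted p of 0.05 were 4 negative and 1 positive, against 3.22% and 2.02% of all genes. The median was -1.40, and 0.13 with the stricter filter, which tests fewer members. The list made up 0.00301% to 0.00625% of the signal in Scx- day 7, above the 0.00180% to 0.00267% of Scx+ day 7 and the 0.000635% to 0.00134% of day 14. Gzma, a protease of killer cell granules (chromosome 13, 113093824 to 113100981), read 112, 844, 273 and 463 in Scx- day 7 and 5.11 to 83.4 in the other stimulated libraries. It was listed at 0 in all 3 controls. Its difference was -4.2 ± 1.0 (limma adjusted p = 0.231). Prf1, which forms the pores that admit granzymes, gave -3.58, and Nkg7, a granule protein, -2.13. Gzma, Prf1 and Nkg7 had the lowest p of the list, and as killer cell genes they do not stand for its T and B cell markers. How far the immune cells above account for the interferon genes was not tested.

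Further leading genes outside the lists shared this direction. Slamf7, a receptor of activated leukocytes, read 487, 1030, 684 and 959 in Scx- day 7 and 164 to 318 in all other stimulated libraries, with a difference of -1.89 ± 0.36 (limma adjusted p = 0.197). Ms4a4c, a membrane protein gene of leukocytes, gave -2.95, Apol9b -2.47 and Trim30d -2.27. Cd180, a Toll-like receptor homologue of B cells and macrophages, crossed over: it read 902, 1820, 1000 and 2070 in Scx- day 7, above the 299, 584, 796 and 790 of Scx+. At day 14 it read 195, 211, 184 and 260 in Scx-, below the 433, 487, 414 and 342 of Scx+. Its difference was -2.21 ± 0.44 (limma adjusted p = 0.197).

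Red cell genes as a list had the opposite course, high in Scx+ at day 7, though not in every role. Of 37 tested members of the red cell precursor list, 31 had a positive difference, and 15 had an unadjusted p under 0.05 in that direction, against the 2.02% of all genes. None passed the adjusted threshold. The median was 0.95, with median effects of -0.87 at day 7 and 0.05 at day 14. This list too was chosen with earlier results of these data known, so its count is a description. By role, the median effect at day 7 was -9.995 for globins, -1.79 for enzymes and carriers and -1.04 for membrane and skeleton. It was near 0 for haem synthesis (-0.081), iron uptake (-0.015) and the 3 tested transcription factors (0.106). For globins the median effect was still -3.08 at day 14. Hbb-bs was listed at 0 in every Scx- day 7 library and reads may be divided among copies, so the size of the globin medians is uncertain. Rhag, Trim58 and Gata1 were too low to test. Without the 6 globin entries, a choice made after the data were seen, 25 of 31 were positive, 11 had an unadjusted p under 0.05 and the median was 0.61. The list made up 0.959% to 4.05% of the signal in Scx+ day 7, 0.0630% to 0.118% in Scx- day 7, 0.145% to 0.319% in Scx+ day 14 and 0.113% to 0.190% in Scx- day 14.

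Bpgm, the enzyme that makes 2,3-bisphosphoglycerate in red cells (chromosome 6, 34476356 to 34505136), had the lowest p of all genes. It read 2990, 10100, 5380 and 2210 in Scx+ day 7 and 567, 680, 945 and 650 in Scx- day 7. The day 14 values were 1020, 938, 1000 and 1200 in Scx+ and 1320, 1510, 1290 and 1540 in Scx-, so the genotypes separated on both days and in opposite directions. The effect was -2.64 ± 0.34 at day 7 and 0.44 ± 0.34 at day 14, and the difference was 3.08 ± 0.47 (limma unadjusted p = 9.29e-06, adjusted p = 0.101). Over the 31 alternatives its adjusted p ranged from 0.0103 to 0.657. In the unstimulated controls it read 5360, 6240 and 6690, as high as in Scx+ day 7. Alas2 was low in the same controls, at 257, 287 and 308, so Bpgm did not follow it there.

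Alas2, which starts haem synthesis in red cell precursors (X chromosome, 150547417 to 150570622), read 5050, 19100, 9510 and 4170 in Scx+ day 7 and 70.3, 8.66, 232 and 29.9 in Scx- day 7. It read 1440, 328, 605 and 1770 in Scx+ day 14 and 107, 63.9, 434 and 576 in Scx- day 14. Scx- stood lower on both days, without overlap at day 7 and with overlap at day 14. The difference was 5.29 ± 1.33 (limma adjusted p = 0.325). Car2, a carbonic anhydrase of red cells, read 516, 972, 658 and 411 in Scx+ day 7 and 71.4, 102, 73.8 and 62.3 in Scx- day 7, and gave 3.08 ± 0.68 (adjusted p = 0.220). Slc4a1, the anion exchanger of the red cell membrane, read 342, 1730, 1100 and 295 in Scx+ day 7 and 4.08, 0.598, 16.2 and 0 in Scx- day 7. Epb41, a protein of the membrane skeleton that other cells also make, gave 1.73 and read 4880, 7740 and 6190 in the controls.

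The globin entries are near-identical copies, so reads may be divided among them by rule, and several are listed at 0 in single libraries. Summed over 2 alpha entries, the signal was 252000, 872000, 396000 and 186000 in Scx+ day 7 and 2710, 232, 9760 and 742 in Scx- day 7. At day 14 the sum was 58200, 16300, 27200 and 47200 in Scx+ and 3790, 1550, 20800 and 26600 in Scx-. The 4 beta entries together read 206000, 806000, 351000 and 168000 in Scx+ day 7 and 2070, 169, 7380 and 728 in Scx- day 7. The controls had alpha sums of 18700, 17400 and 19900. Each Scx+ day 7 library thus carried more globin signal than any other of the 19. With the mean of the red cell list itself as a covariate, the difference of Alas2 was 0.21 and that of Bpgm 1.98. Both genes are members of that mean, so a move toward 0 is built in and shows nothing further.

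GATA factors act on many red cell genes, and AGATAA was searched on both strands of the same promoters. It was present for 6 of the 22 red cell genes with a promoter in the table. The share was 8.26% of the tested genes and 12.7% of all genes there. AGATAA was also present for 4 of the 10 interferon-induced GTPases and 4 of the 30 interferon response genes, Irf7 among them. It was thus not particular to the red cell list, in which Bpgm and Epb41 had no match. The stretch of the Alas2 promoter with this match is shown because Alas2 leads the non-globin members in size of difference (chrX:150547306-150547361, plus strand, RefSeq GRCm38.p6; capitals mark the match, on the other strand):
Alas2: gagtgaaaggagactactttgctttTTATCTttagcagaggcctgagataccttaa

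**Figure D3:**
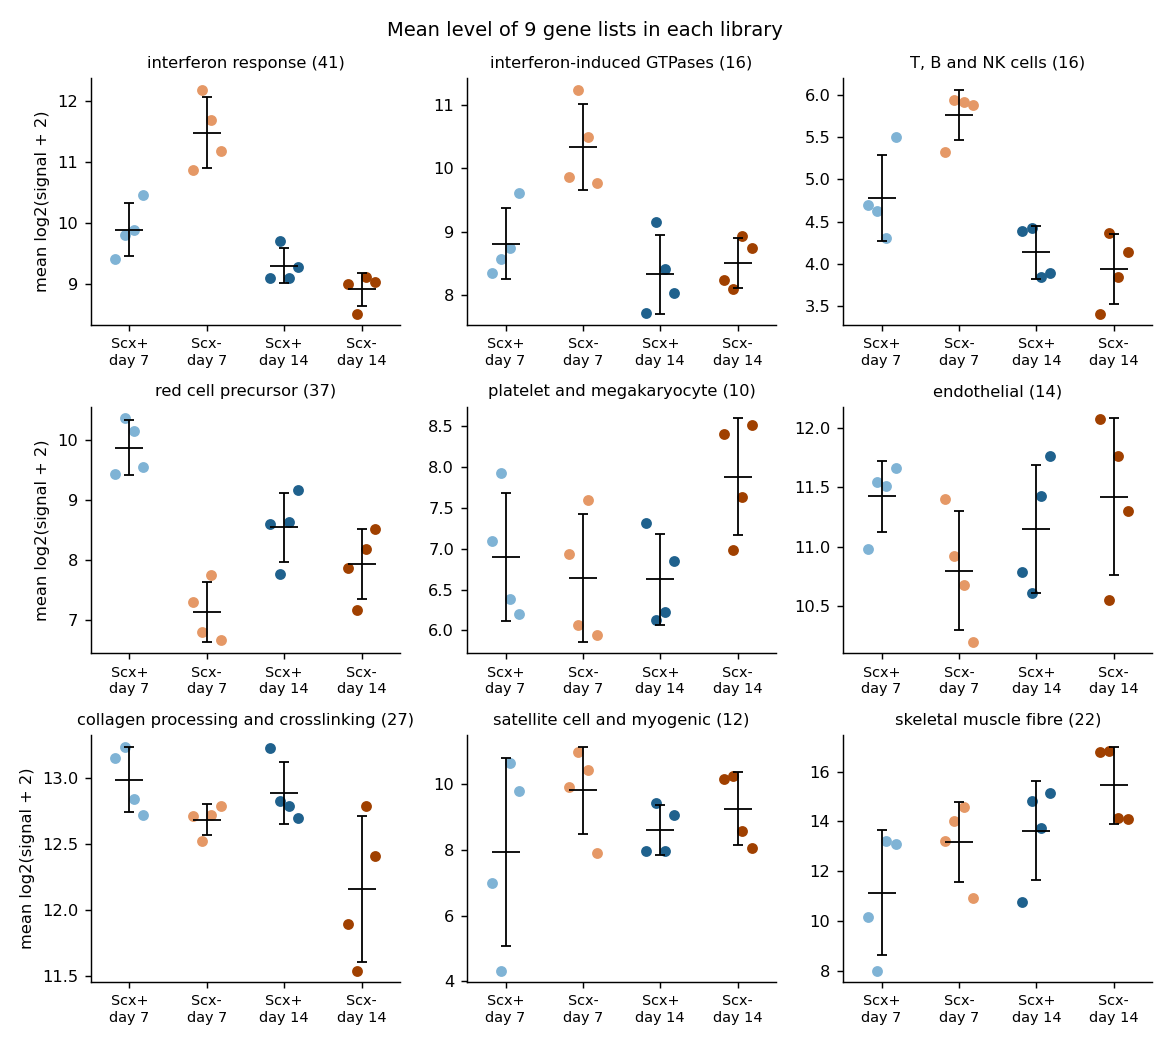
Mean log2(signal + 2) of the tested members of 9 gene lists in each of the 16 libraries (points), with the group mean and SD (bars, n = 4); the number of members stands in brackets. Scx- day 7 has the highest mean for the interferon, GTPase and lymphocyte lists, Scx+ day 7 has the highest mean for the red cell list, and the muscle lists vary widely within each group.

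Platelet and vessel genes also had mostly positive differences. The platelet effect stood mainly at day 14, and that of the red cell list at day 7. Of 10 platelet and megakaryocyte genes, 9 had a positive difference, and the median was 1.60. For 4 the unadjusted p was under 0.05 in that direction, against the 2.02% of all genes. The parts of this median differed from those of the red cell list, with a median effect of -0.18 at day 7 and 1.34 at day 14. Treml1, a receptor of platelet granules, read 76.3, 58.7, 41.8 and 67.2 in Scx+ day 14 and 188, 148, 130 and 215 in Scx- day 14, while the day 7 groups overlapped. Its difference was 1.06 ± 0.43 (limma adjusted p = 0.819). Without Scx+ day 7 replicate 2 the list median was 0.87, without Scx- day 14 replicate 1 it was 1.0 and without Scx- day 14 replicate 4 it was 0.94, while with the red cell list as a covariate it was -0.56. All 14 endothelial genes had a negative effect at day 7 and a positive one at day 14, as did 2692 of all 16109 genes. Their median difference was 0.85. Only Vwf, the clotting factor stored in endothelial cells and platelets, had an unadjusted p under 0.05 (difference 1.81 ± 0.67, limma adjusted p = 0.736). With the macrophage list as a covariate the endothelial median was 0.08 and with the red cell list -0.36.

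A few signalling and matrix-degrading genes had a positive difference carried by both days. Tnfsf11, or RANK ligand, the cytokine that drives osteoclast formation (chromosome 14, 78277446 to 78308043), read 443, 158, 220 and 233 in Scx+ day 7 and 172, 30.2, 108 and 58.5 in Scx- day 7. At day 14 it read 59.5, 32.7, 41.7 and 47.6 in Scx+ and 143, 101, 84.7 and 344 in Scx-. The genotypes overlapped at day 7 and not at day 14. The effect was -1.66 ± 0.51 at day 7 and 1.65 ± 0.51 at day 14, and the difference was 3.31 ± 0.72 (limma adjusted p = 0.220). It was listed at 0 in all 3 controls. Mmp3, a metalloproteinase that cleaves proteoglycans and other matrix proteins, read 10000, 2500, 1930 and 5120 in Scx+ day 7 and 1800, 2320, 1610 and 1650 in Scx- day 7. It read 2380, 3770, 3280 and 1970 in Scx+ day 14 and 10800, 3240, 6970 and 7940 in Scx- day 14. The genotypes overlapped on both days, and the difference was 2.39 ± 0.63 (limma adjusted p = 0.325).

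Il6, an inflammatory cytokine (chromosome 5, 30013114 to 30019975), differed by genotype mainly at day 14. It read 121, 41.3, 84.1 and 188 in Scx+ day 7 and 53.8, 58.4, 94.0 and 48.6 in Scx- day 7, with overlap. At day 14 it read 17.9, 11.3, 5.59 and 12.4 in Scx+ and 104, 65.6, 23.7 and 318 in Scx-, without overlap. Its difference was 3.35 ± 0.89 (limma adjusted p = 0.325). Alpl, the phosphatase of mineralising cells, read 32.7, 40.3, 15 and 62.5 in Scx+ day 14 and 520, 68.6, 107 and 329 in Scx- day 14, and gave 3.47 ± 1.08 (adjusted p = 0.495). Ibsp, a bone matrix protein, gave 6.13 ± 1.64 (adjusted p = 0.328), with 1 Scx+ day 7 library at 1530 and the other 3 at 118 to 181. Of 13 tested osteoblast and cartilage genes, 10 were positive, with a median of 0.51. For 2 the unadjusted p was under 0.05 in that direction, against the 2.02% of all genes.

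The other leading genes with a positive difference were mostly high in Scx+ day 7. Draxin, a secreted axon guidance protein, read 466, 353, 199 and 195 in Scx+ day 7 and 134, 33.7, 95.2 and 63.6 in Scx- day 7, with all 8 day 14 libraries between 32.5 and 186. Its difference was 2.80 ± 0.62 (limma adjusted p = 0.220). Cyp2s1, a cytochrome P450 enzyme, read 177, 250, 189 and 269 in Scx+ day 7, above all other stimulated libraries, which read 14.1 to 80.8, and gave 2.97 ± 0.71 (adjusted p = 0.234). Apol11b, an apolipoprotein L family gene, read 199, 1010, 459 and 142 in Scx+ day 7 and 0.605, 0, 8.82 and 0.721 in Scx- day 7. Its difference was 5.05. With the red cell list as a covariate it was -0.04, but the mean of that list itself differs by genotype and day. The source of the Apol11b signal was not tested.

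Smox and Bzw2 had smaller differences with small standard errors, and these depend more on the scaling. With library totals the difference was 0.675 for Smox (limma adjusted p = 0.441) and 0.499 for Bzw2 (limma adjusted p = 0.532). Smox, the spermine oxidase, read 1180, 1160, 1190 and 1130 in Scx+ day 7 and 716, 789, 861 and 572 in Scx- day 7, without overlap. The day 14 values were 833, 798, 997 and 1080 in Scx+ and 917, 1070, 1110 and 1040 in Scx-, with overlap, and the difference was 0.85 ± 0.19 (limma adjusted p = 0.220). Its control values, 18500, 23700 and 26700, exceeded every stimulated library. Bzw2 overlapped between genotypes at day 7 and stood higher in Scx- at day 14, at 3350, 3610, 2740 and 2770 against 1940, 2330, 2070 and 1840, with a difference of 0.67 ± 0.17 (adjusted p = 0.325). Abat, which breaks down the transmitter GABA, gave 1.14 ± 0.30. Replicates varied more for Kcne4, a regulatory subunit of potassium channels, at 1.82 ± 0.48, for Adamts18, a secreted metalloproteinase, at 2.27 ± 0.60, and for Nrxn2, a neurexin, at 2.73 ± 0.72.

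In the authors' deposited table, 86 of 15951 genes had an adjusted p of at most 0.05 for genotype on both days, and 83 of them had the same sign on both. The 3 with opposite signs in the authors' deposited table were Cd180, Mmp3 and Tnfsf11. For Tnfsf11 the authors' deposited table gives log2 fold changes of -1.53 at day 7 (adjusted p = 0.0478) and 1.79 at day 14 (adjusted p = 0.0293). For Mmp3 the authors' deposited table gives -1.38 (adjusted p = 0.0357) and 1.35 (adjusted p = 0.0371), and for Cd180 1.26 (adjusted p = 0.0139) and -0.98 (adjusted p = 0.00341). For Irf7 the authors' deposited table gives 2.31 (adjusted p = 1.21e-14) and -0.17 (adjusted p = 0.871).

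Matrix-building genes leaned to a larger deficit at day 14. Of 27 genes of collagen processing and crosslinking, 25 had a negative difference, as did 7609 of all 16109. For 3 the unadjusted p was under 0.05 in that direction, against the 3.22% of all genes. The median was -0.45, from median effects of -0.30 at day 7 and -0.71 at day 14. Lox, the lysyl oxidase that crosslinks collagen, read 93000, 120000, 74200 and 65500 in Scx+ day 7 and 67300, 121000, 60700 and 102000 in Scx- day 7. It read 102000, 89500, 58600 and 112000 in Scx+ day 14 and 31700, 23700, 63000 and 34200 in Scx- day 14. Its effect was -0.03 ± 0.32 at day 7 and -1.30 ± 0.32 at day 14, and its difference -1.28 ± 0.45 (limma adjusted p = 0.680). Plod1, a lysyl hydroxylase, stood lower in Scx- without overlap on both days and gave -0.48 ± 0.20 (adjusted p = 0.847). Without Scx- day 14 replicates 1 and 2 the list median was -0.02, and with the red cell list as a covariate -0.97. Of the 11 fibrillar collagens, 8 were negative, with a median of -0.37, which ranged from -1.67 with the red cell list as a covariate to 0.47 without that pair.

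These 2 libraries were the richest in skeletal muscle fibre transcripts, with list means of 16.77 and 16.82 on the log2 scale, against 8.0 to 15.14 in the other 14. The muscle fibre list made up 4.10% to 17.9% of the signal in Scx- day 14, 0.255% to 8.12% in Scx+ day 14, 0.344% to 5.59% in Scx- day 7 and 0.0313% to 1.90% in Scx+ day 7. Its 22 genes had a median difference of -0.27, with median effects of 2.13 and 1.88 on the 2 days, and 0 had an unadjusted p under 0.05. That median kept its sign in 21 of 31 alternatives and ranged from -1.44 with the macrophage list as a covariate to 0.86 without Scx+ day 7 replicate 2. All 12 satellite cell and myogenic genes were negative, with a median of -1.16, again 0 with an unadjusted p under 0.05. The satellite median was 0.04 without Scx+ day 7 replicate 2, whose mean of the list was 4.33, and 0.63 with the red cell list as a covariate. The interferon list median was -1.67 without the muscle-rich pair.

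Mitosis genes gave 24 of 24 differences above 0, with a median of 0.38, and 0 had an unadjusted p under 0.05. The median was -0.40 without Scx+ day 14 replicate 4, whose mean for the list was 6.30, below the 8.14 to 10.53 of the other 15, and 2.07 with the red cell list as a covariate. DNA replication genes had a median of -0.04. The 29 nuclear genes of the respiratory chain were all positive with a median of 0.32, which ranged from -0.21 without the muscle-rich pair to 0.97 with the red cell list as a covariate. In the Plac9 region, whose genes stood higher in Scx- on both days, the median effect was 1.38 at day 7 and 1.61 at day 14, with a median difference of 0.23 over 7 genes.

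**Figure D4:**
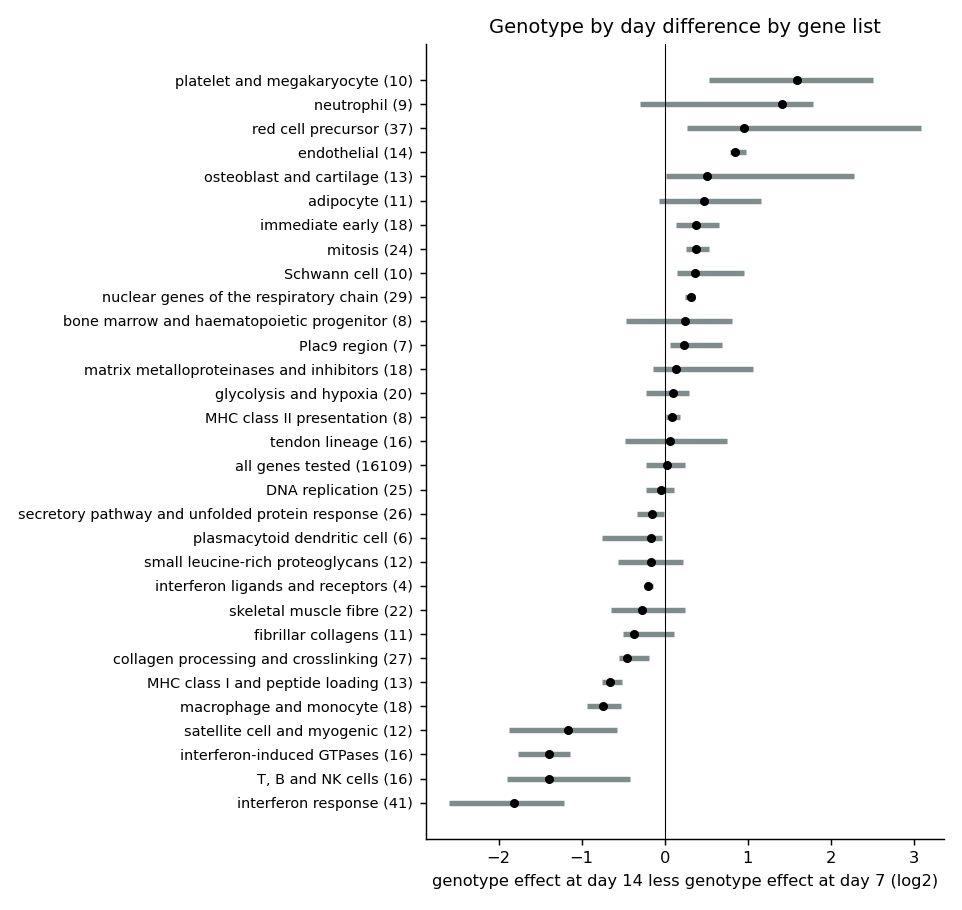
Median (point) and interquartile range (bar) of the genotype by day difference, in log2, for 30 gene lists and for all genes tested, with the number of members tested in brackets. The interferon response list has the lowest median, -1.81, and the platelet list the highest, 1.60, beside 0.02 for all genes.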

How the data were processed

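Total RNA of plantaris tendon had been sequenced. Per the submitters' processing notes, FastQC, STAR and DESeq2 were named with the genome build mm10, without versions or roles. The authors deposited a scaled signal per gene and library: low values repeat in steps of 0.592 to 1.12 units, and only 49.9% to 67.6% lie within 0.1 of a whole multiple, so no count test was run. The authors' second table, of 15951 genes, holds log2 fold changes and adjusted p-values and was only quoted.

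The 16 libraries were rescaled by medians of ratios (factors 0.823 to 1.111). The factors differed by group, at 0.823 to 0.874 in Scx- day 14 and 1.008 to 1.111 in the other groups. Of 24972 genes, the 16109 with at least 10 units in at least 4 libraries were fitted with limma 3.58.1 in R 4.3.3 on log2(signal + 2), with a mean-variance trend, robust moderation and no covariate, and adjusted by Benjamini-Hochberg at 0.05. The procedure was tested on simulated data. Members, lists and rules were chosen with earlier results of these data known. Named were Scx, Tnmd and Col1a1, the 15 lowest unadjusted p in each direction with a regular symbol and a group mean of at least 100, up to 10 members of each of the interferon and red cell lists, and up to 3 of each other list; some were left out for length, and Rsad2, Ube2l6, Isg15 and Stat2 lie outside this rule. Whether strand was kept is not given in the sources used here. Alternatives changed the scaling, filter, pseudocount, moderation, weights, samples, a covariate or the replicate block. Positions and promoters are from RefSeq, GRCm38.p6.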

Additional observations from a re-analysis of the deposited data

Results flagged for a closer look

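Single libraries stood apart from the other 3 of their group in 20 of 416 groups examined by Dixon's ratio, a share that chance alone gives, about 1 in 20. In Scx+ day 7, Apol9b was 162 in replicate 2, Abat 592 in replicate 1 and Ibsp 1530 in replicate 2. The list means that stood apart there, in log2, were 12.37 for immediate early genes in replicate 4, 12.5 for glycolysis and hypoxia in replicate 3 and 7.36 for adipocyte genes in replicate 1. In Scx- day 7, Ube2l6 was 1640 in replicate 1 and Hba-a1 742 in replicate 4; Hba-a1 is listed at 0 in the other 3 libraries. List means there were 12.07 for interferon ligands and receptors in replicate 4, 5.32 for T, B and NK cells in replicate 1 and 6.29 for adipocyte genes in replicate 3.

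In Scx+ day 14, Ifit2 was 663 in replicate 4, Slc4a1 11.6 and Adamts18 42.5 in replicate 2, and the adipocyte list mean was 10.27 in replicate 4. In Scx- day 14, Rsad2 was 32.5 and Nkg7 60.4 in replicate 2, and Hbb-bs was 849 in replicate 4 and listed at 0 in the other 3. List means there were 12.99 for fibrillar collagens in replicate 2, a library rich in muscle transcripts, and 9.49 for MHC class II presentation in replicate 1, the other such library. No explanation of these values was tested.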

How the results depend on the processing

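With 31 alternatives, the count of genes past the threshold stayed at 0 in 24. It was 1 with library totals (Irf7), 1 with the muscle list as covariate (Irf7), 3 in a fit of all 5 groups with the controls (Bpgm, Ifit3 and Irf7) and 2 without the muscle-rich pair, Scx- day 14 replicates 1 and 2 (Hsh2d and Irf7). Leaving out each library in turn gave 0 to 24. The 24 came without Scx- day 7 replicate 1, which has the lowest interferon list mean of its group (10.87); 20 were negative, 4 positive, and 10 belong to the interferon, GTPase or MHC class I lists. Without Scx+ day 7 replicate 2 or without Scx+ day 7 replicate 4 it was 1 (Bpgm).

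The interferon median kept its sign in all 31, from -2.07 to -1.58, with 31 to 40 members under an unadjusted p of 0.05. Red cell members under that p numbered 8 with the macrophage list as covariate and 2 with the red cell list as covariate, where the median was 0.34. The red cell covariate is the mean of these same members, so that fall is built in. Its group means were 9.87 and 7.12 in Scx+ and Scx- at day 7, and 8.54 and 7.93 at day 14. Because this covariate carries a genotype by day difference, shifts of other genes and lists under it show nothing about their source. The cause of the shift with the macrophage list was not tested. Genes with an unadjusted p under 0.05 numbered 480 to 1313.

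Replicate numbers are shared by the groups, but the samples share only a number. After each gene's group mean was taken out, what remained correlated at -0.45 to 0.37 between same-numbered libraries. Among the libraries of other groups, 0 of 16 were closest to their own number. With the replicate block 0 genes passed and 772 had an unadjusted p under 0.05. The median standard error of 0.35 and the unknown read depth limit what 4 libraries a group can resolve.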
